A study of Takifugu alboplumbeus with 24 samples.

Results

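The comparison described here was between brain libraries of grass puffers taken at the waning moon in July 2020 and libraries taken at the waning moon in June 2020. It used 6 of the 24 libraries of the series, 3 for each month, chosen by their labelled sampling point and not by any measured value. Grass puffer (Takifugu alboplumbeus) is a small marine pufferfish that spawns on beaches in step with the lunar and tidal cycle. All fish were wild males from the spawning site at Minamichita, Japan, that were carried alive to the laboratory and received no treatment. The tissue was 1 piece of brain that held hypothalamus, pituitary and the lower part of the telencephalon and was taken in the evening, and poly-A RNA from it was sequenced. The other 18 libraries came from the new, waxing and full moon of 2 successive lunar cycles, again with 3 libraries for each sampling date. Each month at the waning moon is a single sampling date, so the month, the date and whatever else changed between the dates cannot be told apart. The labels do not say whether a library is 1 fish, and p-values then measure only the spread between libraries of a date, which may be technical.

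Several gene systems named in the results share a simple background. Heat shock proteins are chaperones that hold and refold other proteins, and their genes are switched on by warmth and by other stress to proteins, whereas cold-inducible RNA-binding protein is known in mammals for higher expression in mildly cooled cells. Serine/arginine-rich (SR) splicing factors bind RNA and set which exons are joined. The circadian clock is a loop of transcription factors: CLOCK and BMAL proteins drive period, cryptochrome, BHLHE40 and REV-ERB genes, whose products act back on the loop, while ROR proteins activate at the sites that REV-ERB proteins repress. The pituitary in the same tissue piece releases gonadotropins, growth hormone and prolactin, the last known in fish for its part in salt and water balance.

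Levels are given in FPKM, fragments scaled by transcript length and by the size of the library, as the authors deposited them, and changes are July minus June on the scale log2(FPKM + 1), which understates the change of genes with low levels. The sums of FPKM over all genes were 454562, 443289 and 451568 in the June libraries and 484265, 445550 and 452254 in the July libraries, and their means differed by 10.9 kFPKM (kilo-FPKM, exact permutation test, two-sided, p = 0.6, smallest possible 0.1). Sequencing depth is not in the table and is unknown. Across genes, log2 values of 2 libraries correlated at 0.969 to 0.977 within June, 0.969 to 0.982 within July and 0.962 to 0.976 between the months. A pituitary score, averaged over the log2 values of 8 hormone genes, was 9.07, 9.59 and 10.2 in June and 8.94, 9.60 and 9.11 in July, and it overlapped between the dates. The piece was not free of eye or pineal RNA. The summed level of the 14 retina markers ran from 17.5 to 238 FPKM in June and from 13.4 to 29.0 in July, the 6 pineal markers summed to 5.59 to 75.5 and 5.49 to 8.48, and rod opsin (rho) was at 0.09, 29.0 and 108 against 0.26, 0.03 and 4.41. No retina marker was at 0 in all 6 libraries. Red blood cell markers summed to 706 to 1929 FPKM in June and 1425 to 4196 in July, and testis markers to 1.54 to 2.70 over the 6 libraries. The 12 testis markers were all under the filter on low values.

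Between the 2 waning moon dates, 121 genes of the 17058 tested passed an adjusted p of 0.05 in limma, which is 0.709% of genes. Of these, 67 were higher in July (0.393%) and 54 were lower (0.317%). At an unadjusted p under 0.05 there were 2181 genes (12.8%). The changes were mostly small: the median size among the 121 was 0.52 on the log2 scale, 54 were under 0.5, and 12 were 1 or more, with a highest size of 1.89. All 121 had 3 July libraries on one side of the 3 June libraries, which held for 2993 (17.5%) of all genes tested. Over all genes the median change was 0.02 and 9126 genes (53.5%) were above 0. When each of the 6 libraries was left out in turn, 34 of the 121 passed every time, and the count was 54, 41 and 127 without June replicates 1, 2 and 3 and 63, 69 and 58 without July replicates 1, 2 and 3. Fitted on the 6 libraries alone, without the spread of the other dates, 2 genes passed. In a piece of tissue a lower value can mean fewer cells of a type or less RNA per cell, and these cannot be told apart.

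**Figure D1:**
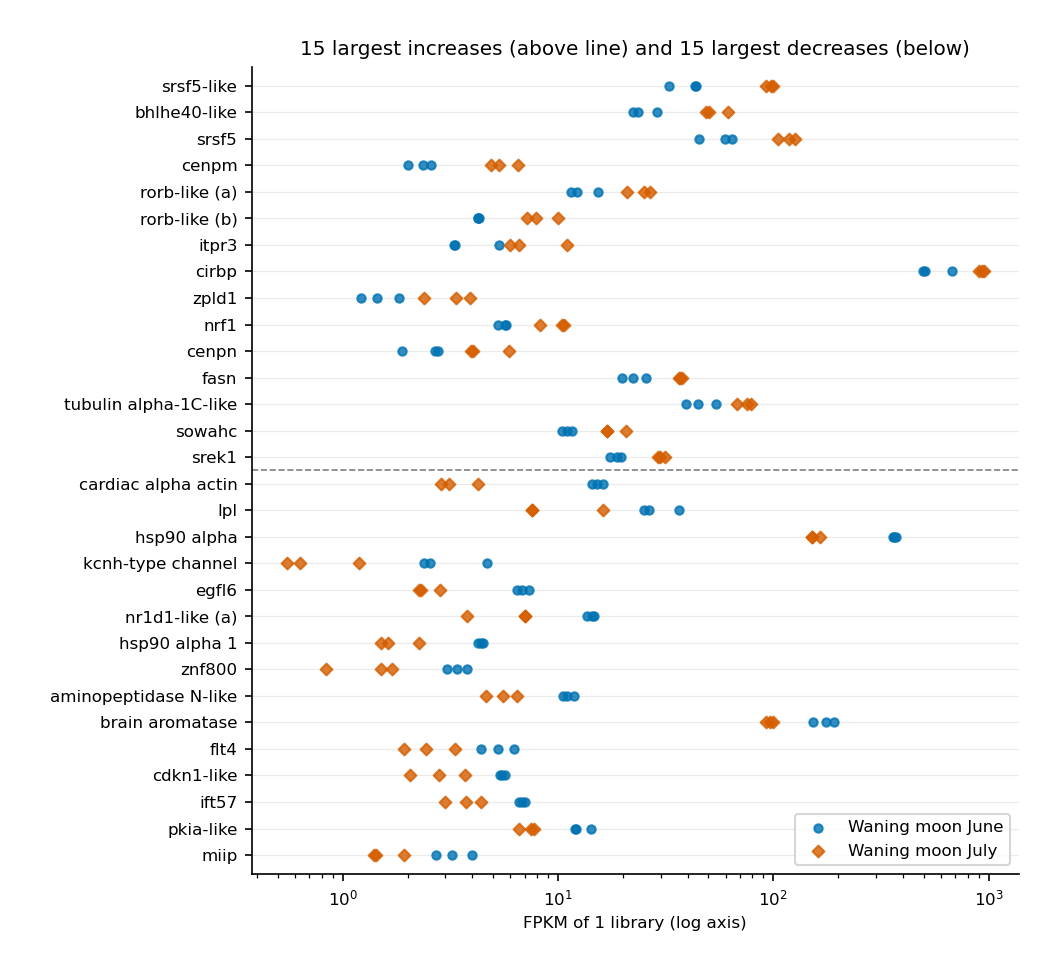
FPKM on a log axis in each of the 3 June (circles) and 3 July (diamonds) waning moon libraries for the 15 genes with the largest increase and the 15 with the largest decrease among those that passed the test. The June and July points of each gene do not overlap, and the cardiac actin gene has the largest change, from 14.3 to 16.2 FPKM in June to 2.85 to 4.27 in July.

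Part of the heat shock list was lower in July, led by genes of HSP90 and its partners. Of the 42 members of the heat shock list that were tested, 4 fell (9.52%, against 0.709% of all genes), none rose, and 33 lay below 0, with a median change of -0.17 against 0.02 over all genes. This and the other lists were chosen with earlier results of these data known, which can set such shares. The inducible HSP90-alpha gene (LOC101068853), a cytosolic chaperone, stood at 364, 359 and 373 FPKM in June and at 164, 151 and 152 in July. The June libraries were close together and all far above the highest July library. The mean went from 365 ± 6.90 to 156 ± 7.42 FPKM (SD, n = 3), a change of -1.23 (SE 0.16, limma adjusted p = 0.000486). A further HSP90-alpha gene (LOC101069079) is listed at a far lower level, 4.49, 4.38 and 4.23 FPKM in June and 2.27, 1.51 and 1.62 in July. Its groups were also apart, and it fell by 0.95 on the log2 scale (SE 0.19, adjusted p = 0.0219), passing in 2 of the 6 fits with a library left out. Such close copies share sequence, and how reads were divided between them is uncertain.

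The co-chaperone gene fkbp4, whose product works with HSP90 on steroid receptors, was at 50.3, 46.0 and 51.4 FPKM in June and at 28.6, 31.2 and 31.3 in July. All 3 July libraries were lower than the lowest in June, by -0.68 on average (SE 0.08, adjusted p = 0.000297). The HSP70-family gene hspa4l (LOC101075949) was at 17.8, 17.8 and 20.8 FPKM in June and at 11.6, 12.4 and 13.5 in July. It fell by 0.55 (adjusted p = 0.00499), again with no overlap. Further HSP90 partners did not pass, ahsa1 with -0.34 (adjusted p = 0.0743) and stip1 with -0.33 (adjusted p = 0.149). The constitutive HSP70 gene hspa8 differed by 0.01 and the constitutive HSP90-beta gene (LOC101076976) by -0.10, neither passing. A stress-inducible HSP70 gene, LOC101067318, did not pass and was at 41.7, 10.01 and 12.6 FPKM in June and 21.1, 2.93 and 6.09 in July. The small heat shock gene hspb8 did not pass either and was at 48.5, 5.46 and 5.76 against 31.5, 6.12 and 7.81. In both genes replicate 1 was the highest library of each date, and the months overlapped.

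The cold-inducible list, subject to the same limit, held 7 tested genes, of which 1 rose (14.3%, against 0.709% of all genes) and none fell, with a median of 0.35. That gene, cirbp, encodes cold-inducible RNA-binding protein and was at 676, 506 and 498 FPKM in June and at 949, 907 and 934 in July. The July libraries lay close together and all above June, with means of 559.9 ± 100.3 and 930.1 ± 21.3 FPKM (SD, n = 3) and a change of 0.75 (SE 0.11, adjusted p = 0.00244). It passed without each of the 6 libraries in turn. An hmgb1-like gene (LOC101067170) of the same list did not pass, at 0.35 (adjusted p = 0.11).

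Splicing regulators moved in both directions. The list, which was put together after the values had been seen, held 62 tested genes, of which 8 rose and 2 fell (16.1% against 0.709% of all genes, a share that the way the list was made can set), with a median of 0.05. The smallest adjusted p of all genes tested belonged to LOC101079760, an srsf5-like SR protein gene, which was at 32.9, 43.9 and 43.3 FPKM in June and at 99.6, 92.7 and 97.2 in July. The July libraries were close together and all far above the highest June library. The change was 1.26 (SE 0.13, limma adjusted p = 9.01e-05). Its annotated relative srsf5 was at 45.3, 64.0 and 59.5 FPKM in June and at 104.8, 126 and 118 in July, with no overlap and a change of 1.05 (SE 0.13, adjusted p = 0.000486).

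A further splicing gene that rose was srek1, whose product binds SR proteins, at 18.9, 17.5 and 19.6 FPKM in June and 31.4, 29.3 and 29.6 in July, a change of 0.66 (adjusted p = 0.000486). Smaller increases that passed were found in rbm33 (0.52), rbm45 (0.46), rbm39 (0.42), the brain-enriched splicing factor srrm3 (0.32) and an hnRNP A/B-like gene (LOC101076059, 0.23). With 1 library left out, rbm33 and rbm39 passed in all 6 fits, rbm45 in 2, LOC101076059 in 1 and srrm3 in none. In the other direction, srsf1, the SR protein gene best known as a general splicing activator, was at 60.1, 55.5 and 53.9 FPKM in June and at 38.4, 40.3 and 41.6 in July. The June libraries were all higher, and the gene fell by 0.48 (SE 0.07, adjusted p = 0.00189). An hnRNP A1-like gene (LOC101077619), of a family that often opposes SR proteins in exon choice, was at 112, 109 and 95.3 FPKM in June and 66.8, 69.2 and 67.8 in July. It fell by 0.62 (adjusted p = 0.000337) with no overlap.

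Clock genes also differed between the dates. The tissue was taken in the evening, and the part of sampling time in these differences was not tested. Of 42 tested members of the circadian list, 6 rose and 4 fell (23.8%, against 0.709% of all genes). The list was chosen with earlier results of these data known, which can set that share. Its median was 0.14, or 0.04 without June replicate 2. There were 6 calls in the list without June replicate 2 and 6 without July replicate 2. On the repressor side of the loop, the bhlhe40-like gene (LOC101063749) was at 23.5, 22.3 and 28.8 FPKM in June and at 50.3, 61.4 and 48.5 in July. The July libraries were all higher, with a change of 1.07 (SE 0.16, limma adjusted p = 0.00189). The gene annotated as bhlhe40 itself differed by 0.13 and bhlhe41 by -0.48 (adjusted p = 0.154), neither passing. The cry1-like gene (LOC101072059), a cryptochrome that represses CLOCK and BMAL, was at 18.7, 17.8 and 16.03 FPKM in June and 27.1, 28.9 and 25.4 in July. It rose by 0.60 (SE 0.09, adjusted p = 0.00136), with the groups apart. The period gene per2, which responds to light in many vertebrates, was at 6.97, 6.96 and 7.26 FPKM in June and 9.50, 10.4 and 9.77 in July. Again no library overlapped, and the change was 0.43 (adjusted p = 0.0119). Its relative per1 did not pass, at 0.21 (adjusted p = 0.726).

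Among the nuclear receptors of the loop, of 5 ROR genes tested, 2 annotated as ROR-beta-like rose: LOC101076680 was at 15.4, 12.2 and 11.5 FPKM in June and 25.1, 26.8 and 20.9 in July. Its groups did not overlap and the change was 0.85 (adjusted p = 0.0026). The other, LOC101077131, was at 4.31, 4.26 and 4.23 FPKM in June and 7.14, 9.96 and 7.87 in July, a change of 0.81 (adjusted p = 0.00815). Both nr1d1-like genes, of the REV-ERB repressors, fell, while 2 nr1d2 genes did not pass. The nr1d1-like gene LOC101078749 was at 14.4, 14.6 and 13.7 FPKM in June and at 3.77, 7.03 and 7.01 in July. Every July library was far under the lowest June library, and the change was -1.18 (SE 0.18, adjusted p = 0.00303). The other nr1d1-like gene, LOC101076758, was at 41.8, 41.5 and 38.0 FPKM in June and 25.9, 20.9 and 26.9 in July, with no overlap and a change of -0.70 (adjusted p = 0.0115). It passed in 3 of the 6 fits with a library left out.

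Among the remaining clock genes, a clock-like gene (LOC101072867), of the activating arm, rose by 0.40 (adjusted p = 0.0119). With 1 library left out, it passed in 3 of the 6 fits, as did per2. A bmal2-like gene (LOC101072137), the partner class of CLOCK, fell by 0.59 (adjusted p = 0.0365), but it did not pass when any one of the 6 libraries was left out. The hlf-like gene LOC101068247, a clock-output factor that binds D-box sites, was at 27.3, 26.6 and 24.5 FPKM in June and at 14.4, 15.4 and 19.3 in July. Its June libraries were all higher and it fell by 0.65 (adjusted p = 0.0037).

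**Figure D2:**
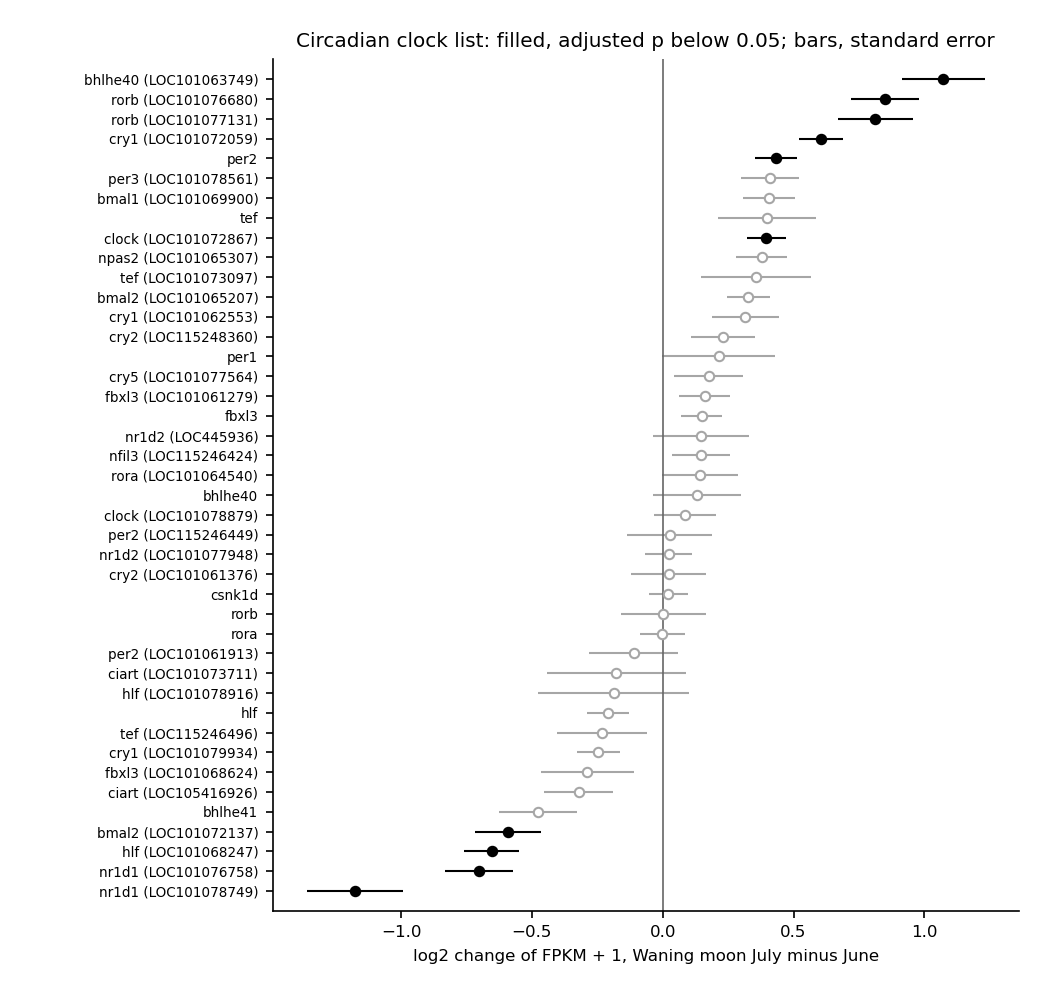
July minus June difference at the waning moon, in log2(FPKM + 1) with its standard error, for the 42 tested members of the circadian clock list, each gene a point, filled where the adjusted p passed. The 6 genes that rose lie between 0.40 and 1.07 and the 4 that fell between -1.18 and -0.59.

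Genes of the cytoskeleton and of muscle-type cells supplied the largest decrease. The cardiac alpha-actin gene LOC101077200 was at 15.2, 16.2 and 14.3 FPKM in June and at 4.27, 3.13 and 2.85 in July. Every June library was far above every July library, and the change was -1.89 (SE 0.27, adjusted p = 0.00162). The 13 tested markers of pericytes and smooth muscle and the 16 of skeletal muscle gave no call in limma. At an unadjusted p under 0.05 the first had 0 higher and 2 lower and the second 1 and 2, against 7.22% and 5.57% of all genes. In the first list 5 markers lay above 0 and 8 below. Among them, acta2 changed by -1.04 to -0.67 over 20 alternative settings and passed in 1. The part of these markers in the actin result was not tested. The tubulin alpha-1C-like gene LOC115249138, a microtubule subunit, rose by 0.68 (adjusted p = 0.00585), from a mean of 46.1 ± 7.65 to 74.0 ± 5.79 FPKM (SD, n = 3).

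Fatty acid synthase (LOC101069108), the enzyme that builds long-chain fatty acids, was at 19.8, 22.2 and 25.8 FPKM in June and at 36.6, 37.01 and 37.7 in July. The July libraries were close together and all higher, by 0.70 (adjusted p = 0.00964), and the gene passed in 4 of the 6 fits that left a library out. The gene of acetyl-CoA carboxylase, acaca, which supplies its substrate, rose with it, from 13.6, 13.3 and 14.7 to 21.6, 20.9 and 19.0 FPKM, a change of 0.53 (adjusted p = 0.00582). These were the 2 called genes among 19 tested members of the fatty acid synthesis list (10.5%, against 0.709% of all genes), and its median was -0.02. Lipoprotein lipase (lpl), which frees fatty acids from circulating lipoproteins, was at 36.6, 26.5 and 25.2 FPKM in June and 16.2, 7.55 and 7.60 in July. The groups did not overlap and it fell by 1.47 (SE 0.32, adjusted p = 0.0365), though it passed in 2 of the 6 fits that left a library out.

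Aromatase of the brain (pfcyp19b-tstr), which makes estrogen from androgen and in fish sits in radial glia, was at 191, 176 and 153 FPKM in June and 92.7, 99.9 and 96.6 in July. July libraries were all lower, and the change was -0.83 (SE 0.19, adjusted p = 0.0457), a call that held in 1 of the 6 fits with a library left out. It was the called member of the reproductive list (23 tested, 4.35%), of the steroid synthesis list (13 tested, 7.69%) and of the astrocyte and radial glia markers (16 tested, 6.25%). Over all genes the share called was 0.709%. The remaining 15 glial markers did not pass, and the median of that marker list was -0.03. In the endoplasmic reticulum, the chaperone calreticulin (calr) fell by 0.65 (adjusted p = 0.0365), from 81.5 ± 0.478 to 51.8 ± 6.01 FPKM (SD, n = 3), and passed in none of the fits with a library left out. A calnexin-like gene (LOC101070859), which folds glycoproteins beside it, fell by 0.39 (adjusted p = 0.0193) and passed in 1 of those fits. They were the 2 calls among 50 tested genes of the unfolded protein response (4%, against 0.709% of all genes), whose median was -0.02.

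Further decreases were found in genes of varied roles. The secreted matrix protein gene egfl6 was at 6.81, 7.35 and 6.44 FPKM in June and 2.27, 2.82 and 2.32 in July, with no overlap and a change of -1.18 (SE 0.13, adjusted p = 0.000117). A cyclin-dependent kinase inhibitor gene (LOC105417819), of the class that halts the cell cycle, was at 5.40, 5.52 and 5.70 FPKM in June and 2.06, 2.81 and 3.68 in July. It fell by 0.79 (adjusted p = 0.00499), and all July libraries were lower. The lymphatic endothelial receptor gene flt4 (-0.83, adjusted p = 0.0468) was the called member of 24 tested endothelial markers (4.17%, against 0.709% of all genes). That list leaned the other way, with 16 of the 24 above 0, against 53.5% of all genes, and a median of 0.15. At an unadjusted p under 0.05 in limma it had 3 of 24 higher and 1 lower, against 7.22% and 5.57% of all genes. The remaining genes among the 15 largest decreases were a voltage-gated potassium channel gene (LOC105416663, -1.21), znf800 (-0.93), an aminopeptidase N-like gene (LOC101079150, -0.90), an intraflagellar transport gene (LOC115247915, -0.74), a protein kinase A inhibitor-like gene (LOC105416989, -0.74) and miip (-0.73). With 1 library left out, znf800 and the kinase inhibitor-like gene passed in all 6 fits, the aminopeptidase gene in 5, the channel gene, flt4 and miip in 2 and the transport gene in 1.

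Further increases included nrf1, a regulator of nuclear genes for mitochondrial proteins, at 5.75, 5.67 and 5.28 FPKM in June and 8.23, 10.6 and 10.5 in July. Its groups were apart and it rose by 0.71 (SE 0.10, adjusted p = 0.00189). The kinetochore genes cenpm (0.98, adjusted p = 0.0251) and cenpn (0.70, adjusted p = 0.0451) rose from means of 2.32 and 2.44 FPKM. Without one library, cenpm passed in 0 of the 6 fits and cenpn in 1. The inositol trisphosphate receptor gene itpr3 (LOC101074918), a calcium release channel, rose by 0.81, a zona pellucida-like domain gene (LOC101065557) by 0.74 and sowahc by 0.67. Each of these 3 passed in 2 of the 6 fits. Over all alternative settings, those 6 fits included, itpr3 passed in 3 of 19, LOC101065557 in 4 of 19 and sowahc in 14 of 20.

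Hormone genes of the pituitary did not pass, although some of them had the widest differences in level. The spread in the test came from all 24 libraries. These include Waxing moon May replicate 2, whose pituitary score of 4.54 was the lowest of the 24. The luteinizing hormone beta gene (LOC101078229), which encodes the gonadotropin subunit that drives sperm release, was at 1772, 1806 and 3903 FPKM in June and at 34.2, 446 and 116 in July. The groups did not overlap, and the difference was -4.24, but with an SE of 1.23 its limma adjusted p was 0.12. It passed in 2 of the other settings tried, with the pituitary score as a covariate and without Waxing moon May replicate 2. The score itself contains this gene and prolactin, so a pass with that covariate is not separate evidence for either. Prolactin was at 229, 363 and 499.9 FPKM in June and 764, 1304 and 1433 in July. Here too July was apart from June, and the difference of 1.70 did not pass (adjusted p = 0.492), except in the same 2 settings. The follicle-stimulating hormone beta gene (LOC101071898) differed by -1.70 (adjusted p = 0.669), growth hormone (LOC101061166) by -1.33 (adjusted p = 0.584) and thyrotropin beta (LOC101067051) by 0.67. The shared alpha subunit cga differed by 0.01, pomc by 0.26, gnrh1, the gene of gonadotropin-releasing hormone, by 0.90 (adjusted p = 0.699), and cebpd, a stress-responsive transcription factor, by 0.21 (adjusted p = 0.83).

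The other gene lists gave no call in limma: 17 of 25 lists, with 522 tested genes, had 36 genes higher (6.90%) and 20 lower (3.83%) at an unadjusted p under 0.05, against 7.22% and 5.57% of all genes, and their medians ran from -0.19 to 0.16. Cytosolic ribosomal protein genes were at the upper end, with 80 of 84 above 0, against 53.5% of all genes, and a median of 0.16 (6 higher and 0 lower at an unadjusted p under 0.05). This rested on July replicate 1, without which 42 of 84 were above 0 and the median was 0.002. Interferon response genes were at the lower end, with 26 of 38 below 0 and a median of -0.19 (0 higher and 6 lower), and without July replicate 2 the median was -0.03. The smallest adjusted p there was that of the RNA sensor gene dhx58, at -0.92 (adjusted p = 0.0881). Oxidative phosphorylation genes had 68 of 92 above 0 and a median of 0.09 (8 higher and 1 lower), and without the same library 51 of 92 and 0.02. None of 31 hypothalamic neuropeptide genes passed in limma (1 higher and 1 lower at an unadjusted p under 0.05). Among them, the feeding peptide gene npy (LOC101076657) differed by 1.44 (adjusted p = 0.132). The 29 tested genes of pituitary cells had a median of 0.08 and no call in limma (0 higher and 2 lower). Of the 15 cell marker lists with a tested gene, 13 had no call in limma, and their 149 genes had 3 higher and 14 lower at an unadjusted p under 0.05. The medians of the 8 retina and 3 pineal markers were -1.17 and -1.69, and 5 of 14 ependymal markers were lower at an unadjusted p under 0.05, against 5.57% of all genes. Without June replicate 3 the retina median was -0.61. The part of these markers in the results above was not tested. With the retina score as a covariate, an alternative added after the data were seen, 112 genes passed, 85 of them among the 121, and the difference from the other phases described below had 117 genes, 90 of them among its 166.

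A step from the first to the second lunar cycle could be measured at the other moon phases from libraries that the waning moon comparison did not use. Among these, only the full moon pair ran from June to July as the waning moon pair did. In a departure from their mean, moon phase and calendar month therefore cannot be told apart. The mean of the steps from May to June at the new moon, May to June at the waxing moon and June to July at the full moon gave 1040 calls (6.10%), of which 577 were higher in the second month (3.38%) and 463 lower (2.71%). Those calls rested on the waxing moon: taken singly, the new moon gave 3 higher and 1 lower (0.0234%), the waxing moon 2181 and 1461 (21.4%) and the full moon 61 and 92 (0.897%), and without the waxing pair the mean of the steps gave 32. Of the 121 genes called at the waning moon, 9 passed in the same direction in the mean of the other phases (7.44% of the 121 and 0.865% of the 1040), and 17 passed in the opposite direction (14.05% and 1.63%).

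The difference between the waning moon step and the mean step of the other phases was itself tested, and 166 genes passed (0.973%), with 89 more positive at the waning moon (0.522%) and 77 more negative (0.451%). Among the 121 genes, 64 also passed this test, which shares the waning moon libraries with their selection. Without the waxing moon pair 37 genes passed, 29 of them among the 121. The nr1d1-like gene LOC101078749 had a step of 0.58 in the mean of the other phases (adjusted p = 0.00573) and differed from it by -1.75 at the waning moon (adjusted p = 0.000221). Without the waxing pair the step was 0.72 (adjusted p = 0.0222) and the difference -1.90 (adjusted p = 0.000572).

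For the genes named next the call in the step of the other phases rested on the waxing pair, while the difference passed without it in some. HSP90-alpha (LOC101068853) had a step of 0.48 in the mean of the 3 phases (adjusted p = 0.00676) and of -0.08 without the waxing pair (adjusted p = 0.837). The latter averages a higher mean level in the second month at the new moon and a lower one at the full moon. The full moon pair, also June to July, thus moved in the direction of the waning moon pair. The difference of HSP90-alpha at the waning moon was -1.70 (SE 0.18, adjusted p = 5.83e-05), and -1.15 without the waxing pair (adjusted p = 0.00795). The srsf5-like gene LOC101079760 had a step of -0.29 (adjusted p = 0.0272) that turned to 0.23 without the waxing pair (adjusted p = 0.296). Its difference was 1.55 (adjusted p = 3.15e-05), and 1.03 without the pair (adjusted p = 0.00378). For cirbp the step was -0.27 (adjusted p = 0.0242) and turned to 0.12 (adjusted p = 0.585), and the difference of 1.01 (adjusted p = 0.000441) became 0.63 and did not pass (adjusted p = 0.0697). Aromatase had a step of -0.71 in the mean of the 3 phases (adjusted p = 0.00187) and of -0.34 without the waxing pair (adjusted p = 0.299), and its difference was -0.13 (adjusted p = 0.828) or -0.49 (adjusted p = 0.443). The acaca gene had a step of 0.26 (adjusted p = 0.0102), or 0.18 without the pair (adjusted p = 0.246), with a difference of 0.28 that did not pass (adjusted p = 0.22).

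**Figure D3:**
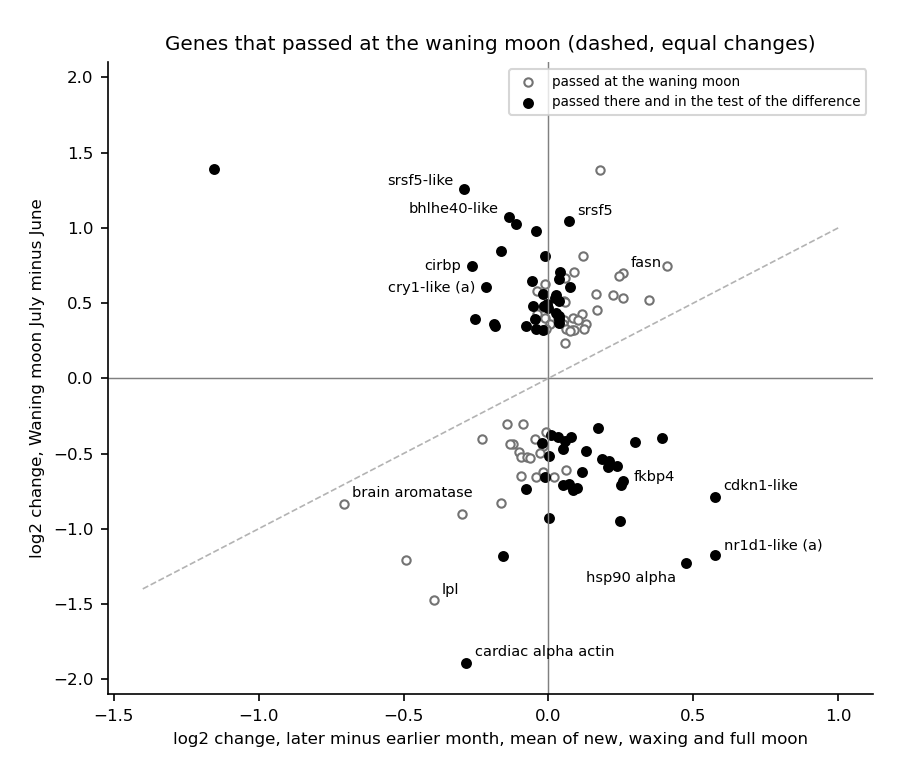
For each gene called at the waning moon (points), the waning moon step in log2(FPKM + 1) on the y axis against the mean step of the other 3 phases on the x axis, with filled points for genes that also passed the test of the difference and a dashed line at equal steps. Of the 121 genes, 56 (46.3%) have opposite signs in the 2 steps, and 64 points are filled. The share of opposite signs over all genes was not taken, so the 56 are a description only.

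By list, the heat shock genes went from a median of 0.11 over the other phases to -0.17 at the waning moon. Over the other phases 8 of the 42 rose and 1 fell, beside 3.38% and 2.71% of all genes. By the test of the difference 6 were more negative at the waning moon, as were 0.451% of all genes. By phase, the median step of the heat shock genes was 0.12 at the new moon, 0.32 at the waxing moon, -0.11 at the full moon and -0.17 at the waning moon. Of the other phases taken singly, only the waxing moon gave calls in this list (15 rose and 1 fell), and 21.4% of all genes were called there. Of the 42 clock genes, 12 passed the test of the difference (0.973% of all genes did), 7 more positive and 5 more negative. The counts of both lists include the waxing pair, without which 34 of the 166 genes called for the difference still passed. Clock genes that passed the test of the difference without that pair were LOC101063749, LOC101072059, LOC101072137, LOC101076680, LOC101076758, LOC101077131, LOC101078749 and LOC101068247. Heat shock genes that did so were LOC101068853, fkbp4 and LOC101075949. Ribosomal protein genes had a median of -0.58 at the waxing moon and 0.22 at the full moon, beside 0.16 at the waning moon with all libraries.

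**Figure D4:**
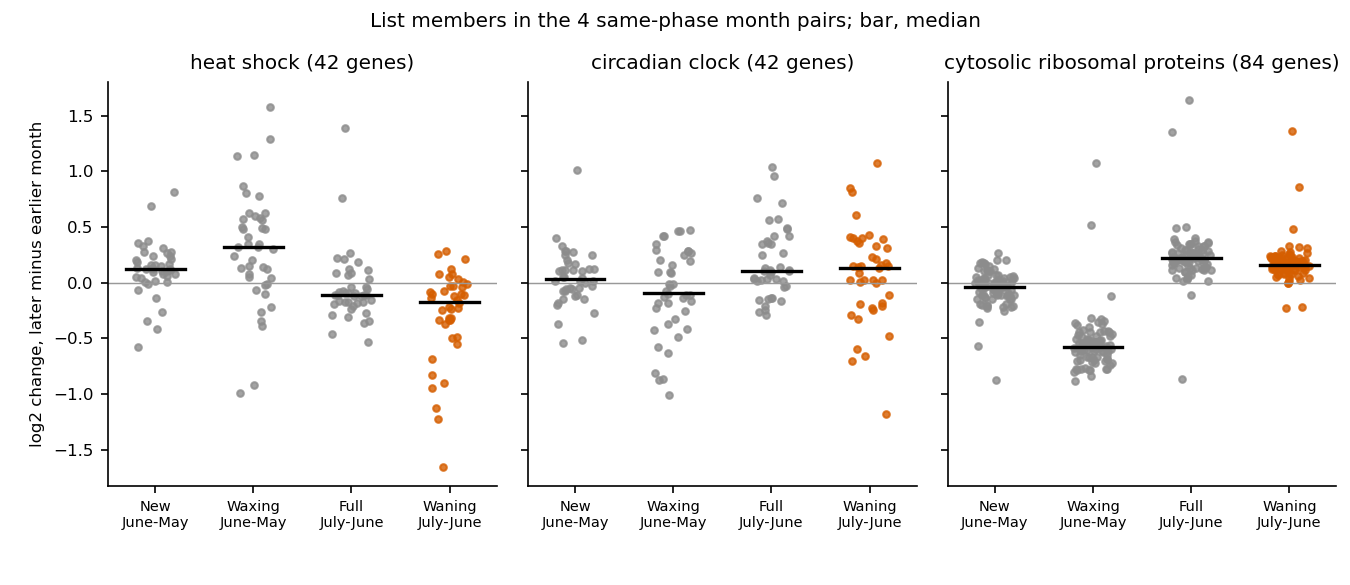
Step in log2(FPKM + 1), second month minus first, of each tested member (points) of the heat shock, circadian clock and cytosolic ribosomal protein lists at each of the 4 moon phases, with the median of the list as a bar. Heat shock genes have a median of 0.32 at the waxing moon and -0.17 at the waning moon.

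The place of the waning moon dates among all 8 dates is given as a description, since the genes were chosen for the distance between those dates. Of the 67 that were higher in July, waning July had the highest mean of the 8 dates in 54, waning June the lowest in 25, and both held in 20. Of the 54 that were lower in July, waning July was the lowest date in 37, waning June the highest in 17, and both held in 9.  HSP90-alpha (LOC101068853) had date means, in the order of sampling, of 131, 177, 219, 365, 147, 522, 173 and 156 FPKM. Its 2 highest dates were waxing June and waning June, and waning July was among the low dates. Between same phases, the mean went from 131 to 147 at the new moon and from 219 to 173 at the full moon. For cirbp the means were 893, 816, 715, 559.9, 830.1, 399.8, 900.8 and 930.1 FPKM, with waxing June and waning June lowest.

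**Figure D5:**
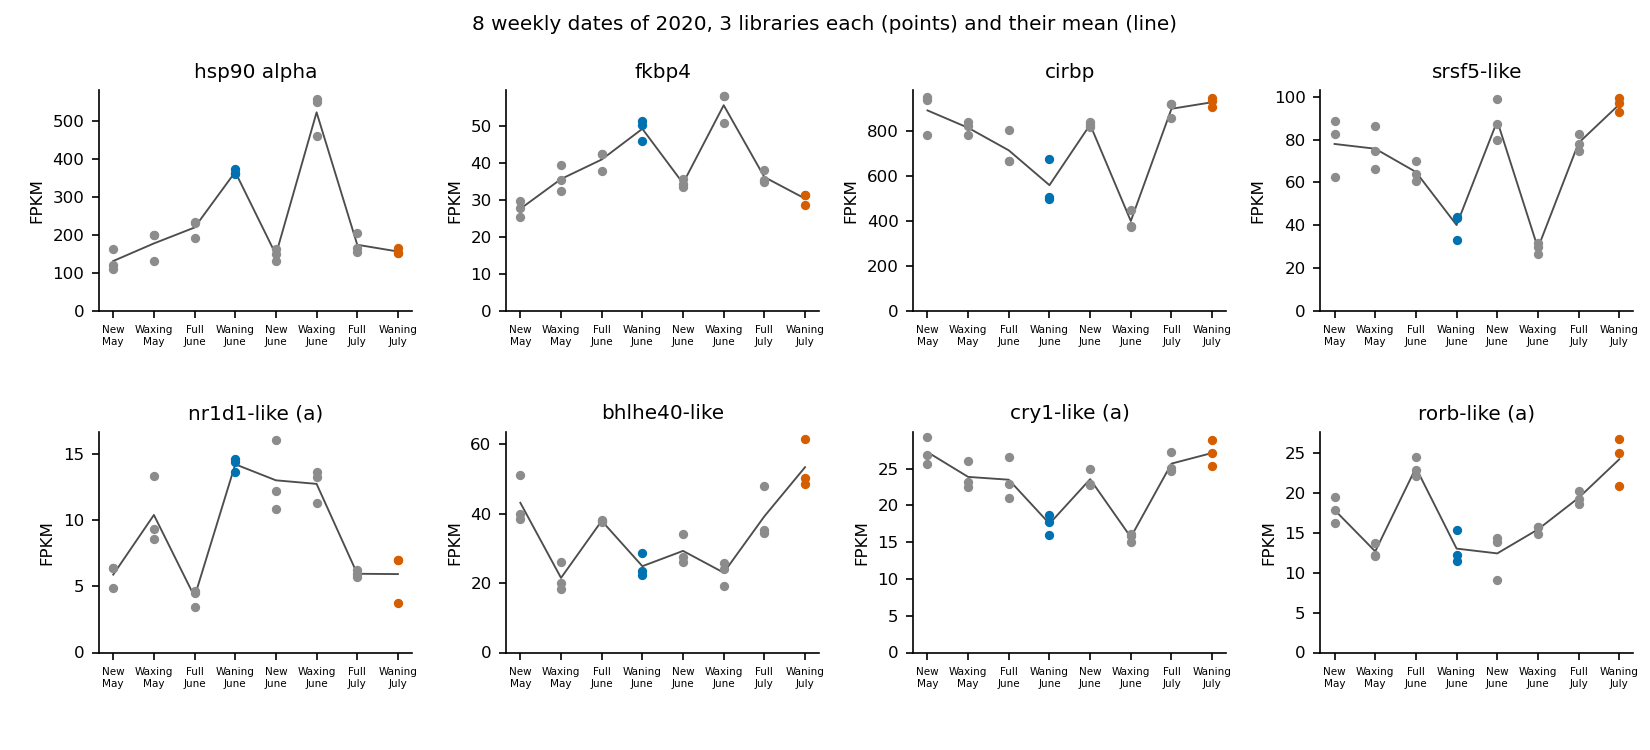
FPKM of 8 genes in all 24 libraries (points) with the mean of each of the 8 dates (lines), in the order of sampling, with waning June in blue and waning July in orange. For HSP90-alpha the waning June mean is 365 FPKM and the waning July mean 156, and for cirbp they are 559.9 and 930.1.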

How the data were processed

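FPKM values are the authors', as deposited with 2 decimals for 24 libraries. Per the labels' protocols, libraries were strand-specific and paired-end from poly-A RNA. HISAT2 2.0.4 and RSEM 1.2.12 are named in the submitters' processing notes, with the genome build not given in the sources used here. Gene names are those deposited with the values, taken where given from descriptions of Takifugu rubripes genes, another species than the one sampled. The effect of this on genes with close copies was not tested. Of 24935 genes, the 17058 whose mean FPKM reached 1 were taken as log2(FPKM + 1) and fitted in limma 3.58.1 (R 4.3.3) with an intensity trend and the 8 dates as groups, so that all 24 libraries gave the spread. P-values were adjusted by Benjamini-Hochberg over all genes at a threshold of 0.05. Named genes were the 15 largest changes per direction among non-overlapping, named calls, 5 per direction for the difference between phases, up to 4 members per list and 9 fixed hormone or stress genes. Members and lists were chosen with earlier results of these data known. The scripts were tested on simulated data. Settings tried are given in the closing section.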

Additional observations from a re-analysis of the deposited data

Results flagged for a closer look

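The step from the first to the second month differed between the waning moon and the mean of the other 3 moon phases in 166 genes, by a test of that difference in limma. The values below are that difference in log2(FPKM + 1), positive where the waning moon step was the more positive. No explanation was tested for any of them. Some of the genes listed did not pass in the waning moon step itself. These were LOC101066054, the ribosomal RNA genes, tpm2, LOC101068925, LOC101067170, egfl7, LOC101072735, ndufs7 and LOC105416817.

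In splicing genes the difference was 1.55 for LOC101079760 (srsf5-like), 0.97 for srsf5, 0.63 for srek1 and -0.74 for LOC101077619 (hnRNP A1-like). In clock genes it was 1.21 for LOC101063749 (bhlhe40-like), 1.01 and 0.82 for the ROR-beta-like LOC101076680 and LOC101077131, 0.82 for LOC101072059 (cry1-like) and -1.75 for LOC101078749 (nr1d1-like). Chaperone genes gave -1.70 for LOC101068853 and -1.19 for LOC101069079 (HSP90-alpha), -0.94 for fkbp4, -0.76 for LOC101075949 (hspa4l) and -0.42 for LOC101070859 (calnexin-like). Of the cold-inducible list, cirbp had 1.01 and LOC101067170 (hmgb1-like) 0.54.

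Among muscle-type genes the difference was -1.61 for LOC101077200 (cardiac actin), -1.26 for tpm2 (tropomyosin) and 0.81 for LOC101068925 (fast skeletal troponin T). Uncharacterized genes were left out of the ranking that follows. Among the other genes that passed, the largest positive values were those of LOC101066054 (RING finger protein 121) at 1.89 and 4 copies of 5.8S ribosomal RNA (LOC115248400, LOC115248583, LOC115248389 and LOC115248407), each at 1.72. The 4 copies have identical values in the table and count as 1 measurement, and a poly-A library is not made to measure them. The remaining values were 1.02 for cenpm, 0.67 for nrf1, 0.74 for egfl7, 0.51 for LOC101072735 (a ribosomal protein L5 gene), 0.34 for ndufs7, -1.03 for egfl6, -1.36 for LOC105417819 (cyclin-dependent kinase inhibitor), -0.93 for znf800, -0.83 for LOC115247915 (intraflagellar transport), -0.83 for miip, -0.66 for LOC105416989 (protein kinase A inhibitor-like) and -0.74 for LOC105416817 (VGF-like neuropeptide precursor).

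Without the waxing moon pair, 15 of the 36 genes listed still passed the test of the difference and 21 did not, their adjusted p lying between 0.0697 and 0.250. Those that passed were LOC101079760, srek1, LOC101077619, LOC101063749, LOC101076680, LOC101077131, LOC101072059, LOC101078749, LOC101068853, fkbp4, LOC101075949, tpm2, egfl6, LOC105417819 and znf800. Among those that did not, LOC101069079 was at -0.75 (adjusted p = 0.225), srsf5 at 0.68 (adjusted p = 0.105), cirbp at 0.63 (adjusted p = 0.0697) and LOC101077200 at -1.33 (adjusted p = 0.12).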

How the results depend on the processing

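Fitted on the 6 waning moon libraries alone, 2 genes passed (0 higher and 2 lower), and 0 passed with the replicate block (limma, 2161 at an unadjusted p under 0.05). Leaving out each library gave 41 to 127 genes for the waning moon step and 50 to 180 for its difference from the other phases. Without the waxing moon pair, the step of the other phases gave 32 genes and the difference 37. The FPKM sum difference was -0.904 to 18.5 kFPKM with a library left out, and was reversed without July replicate 1 (-0.904). Other scalings moved the split of calls: the waning moon step had 40 higher and 58 lower under TPM scaling and 49 and 64 under median-ratio scaling, the difference had 45 and 94 under TPM, and the other phases 1043 and 298 under TPM and 394 and 557 under median-ratio scaling. Otherwise the waning moon count lay between 92 and 165. Adjusting for each library's total FPKM left 73 of the 166 difference calls and 109 of the 121 waning moon calls. TPM scaling left 112 and 81 of them, and median-ratio scaling 159 and 102. In these fits all 166 and all 121 kept their sign. Over the settings fitted to all dates, the clock list had 6 to 12 calls, the heat shock list 3 to 5 and the splicing list 7 to 11. On the 6 libraries alone they had 0, 1 and 0. Same-numbered libraries of the months had deviations correlated at 0.182, 0.172 and 0.0816, and differently numbered ones at -0.231 to 0.110. The main fit did not take the numbers as pairing, and what same-numbered libraries share was not tested. In the fit to all dates the replicate block gave 92 genes for the waning moon step, 149 for the difference and 971 for the other phases. Depth is unknown, so no counting error is given.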

Other observations

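Some genes outside the naming rule were picked after their values had been seen. The gene napepld, whose enzyme makes the endocannabinoid anandamide, had the third smallest p of all genes tested. It was at 12.2 ± 0.744 FPKM in June and 18.4 ± 1.04 in July (SD, n = 3), with no overlap, and rose by 0.56 (SE 0.07, limma adjusted p = 0.000291). It differed from the step of the other phases by 0.58 (adjusted p = 0.000441), and by 0.57 (adjusted p = 0.00176) without the waxing moon pair.

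The subunits nfya and nfyb of the CCAAT-binding factor NF-Y fell by 0.71 (adjusted p = 0.00499) and 0.36 (adjusted p = 0.0423), and passed in 6 and 2 of the 6 fits with a library left out. The growth factor gene bdnf, which supports neurons and synapses, fell by 0.45 (adjusted p = 0.0204), from 11.4 ± 0.469 to 8.12 ± 0.520 FPKM (SD, n = 3), and passed in 2 of those fits. The RNA helicase gene ddx3x rose by 0.64 (adjusted p = 0.00498), from 38.0 ± 1.91 to 60.2 ± 6.99 FPKM (SD, n = 3). An uncharacterized gene, LOC101067982, rose by 1.39 (adjusted p = 0.0468), from 0.19, 0.68 and 0.08 to 3.08, 1.62 and 2.66 FPKM. Its step in the other phases was -1.15 (adjusted p = 0.0026), the difference was 2.55 (adjusted p = 0.00109), and the waning moon call did not pass when any one library was left out.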
